A study of Mus musculus with 12 samples.

Results

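The effect of early chronic memantine in wild-type (WT) mice was examined by comparing memantine-treated WT mice (WT-Mem) with vehicle-treated WT mice (WT-Veh), a comparison termed WT-M/V. It rests on 6 of the 12 mice of the study, 3 per group, each sequenced as its own RNA library without pooling. The study included this comparison to ask how the drug changes the transcriptome of mice that carry no Shank2 mutation. All mice were male C57BL/6N, received 2 oral doses daily between postnatal days 7 and 21, and gave brain RNA at postnatal day 25. WT-Mem mice received memantine hydrochloride at 20 mg/kg, and WT-Veh mice received the 0.1% saccharin vehicle alone. The remaining 6 mice were homozygous for a Shank2 deletion of exons 6 and 7 and received memantine (KO-Mem) or vehicle (KO-Veh) on the same schedule. They are used here only to ask whether the WT values differ by genotype. The sample labels name whole brain as the tissue, whereas the methods name the forebrain without the cerebellum and underlying brain stem. Pups were reared in mixed litters, and the litter of each mouse is not given in the sources used here.

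Memantine is an uncompetitive, low-affinity blocker that enters the open channel of the NMDA receptor, a calcium-permeable ionotropic glutamate receptor. Each receptor joins obligatory GluN1 subunits with GluN2 or GluN3 subunits, and calcium entering through it couples synaptic activity to immediate early gene transcription and to plasticity. Nicotinic acetylcholine receptors, the serotonin 5-HT3 receptor and the dopamine D2 receptor have been reported as further targets of the drug. RNA was taken several days after the last dose, so the values describe the brain after treatment and not during exposure.

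Of 19312 genes in the table, 17564 had a mean normalized count of at least 10 over the 6 WT mice and were tested. The lowest mean among the genes tested was 10 and the highest among the 1748 genes not tested was 9.99. A normalized count here is an estimated read count scaled to be comparable between mice. WT-M/V had 2 differentially expressed genes, defined as genes with a Benjamini-Hochberg adjusted p under 0.05 from limma on log2(normalized count + 1), which is 0.0114% of the genes tested. Both were lower in WT-Mem mice, and neither had a value above 0 in any WT-Mem mouse. Only 3 genes had an adjusted p under 0.5, and they were the 2 differentially expressed genes and the hemoglobin gene Hbb-bs. At an unadjusted p under 0.05 there were 697 genes (3.97%), of which 263 (1.5%) were higher and 434 (2.47%) lower in WT-Mem mice. The values of the 2 groups did not overlap for 1641 genes (9.34%), 729 (4.15%) higher and 912 (5.19%) lower. The median log2 fold change over the genes tested was 0.000205 and the median absolute log2 fold change was 0.0874. Genes other than those 2 are therefore described below by their values in each mouse, and none of them passed the test.

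**Figure D1:**
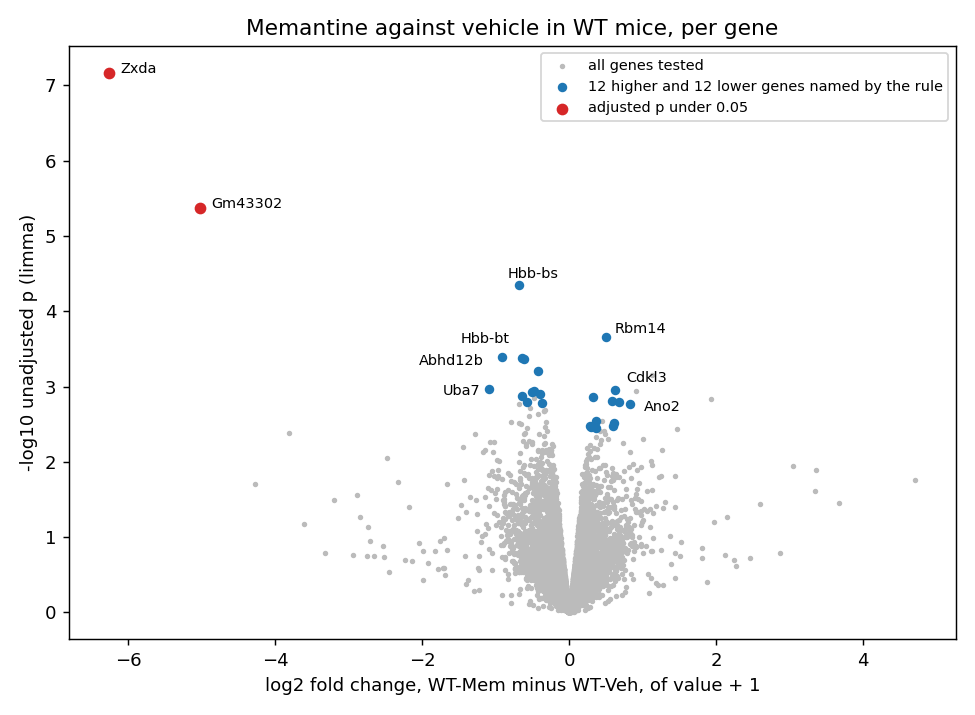
Log2 fold change between WT-Mem and WT-Veh mice (x axis) against -log10 of the unadjusted limma p (y axis) for each of the 17564 genes tested. Zxda and Gm43302 (red) are the 2 genes past the adjusted threshold, and the 24 protein-coding genes named by a rule on p and group separation (blue) lie above the bulk of genes on both sides, 12 higher and 12 lower.

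WT-Veh replicate 3 stood apart from the other WT mice. It lay at 34.7 on the first principal component (31.2% of the variance of the 500 most variable genes), where the other 5 WT mice lay between -12.8 and 4.75. Its mean correlation with the other WT mice was 0.985, against 0.989 to 0.991 for the others, and its 10 highest genes held 6.10% of its sum against 4.56% to 5.04%. WT-Mem replicate 3 lay at -26.9 on the second component (22.3% of the variance), where the other WT mice lay between -7.59 and 15.0. List medians that moved by over 1.5 times or changed sign without WT-Veh replicate 3 are given both ways. Some that lay within 0.1 of 0 with all mice are excepted. The shares of all genes tested given below are those of the fit of all 6 WT mice. Counts of list members at an unadjusted p under 0.05 with a mouse left out have no such share beside them. Those counts show how a list varies with single mice and are not set against a background. Shank2 was 7156 to 8548 in the WT mice and 2706 to 3178 in the KO mice, which fits the genotype labels. Forebrain genes of excitatory neurons were abundant in the WT mice, such as the vesicular glutamate transporter Slc17a7 with 34249 to 43626. None of the 5 Hox genes listed as hindbrain markers was among the genes of the table, but other cerebellum and hindbrain markers were. A score was taken as the mean, over the 10 such genes tested, of log2(normalized count + 1) minus the 6-mouse mean. It was 0.73 in WT-Mem replicate 3 and 0.85 in WT-Veh replicate 3. In replicates 1 and 2 it was -0.48 and -0.34 in WT-Mem and -0.36 and -0.40 in WT-Veh mice. The part of dissection in these values was not tested.

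Both differentially expressed genes share sequence with another gene. Zxda, annotated as an unprocessed pseudogene of the zinc finger, X-linked, duplicated family (chrX:94795563-94798183, minus strand, GRCm38), had the value 0 in all 3 WT-Mem mice. In WT-Veh mice it was 88.4, 51.4 and 94.3. Zxda fell in WT-Mem mice with an adjusted p of 0.00119 by limma, and the groups did not overlap. Without WT-Veh replicate 3 its adjusted p was 0.0535. The 2621 bases of its transcript occur with 100% identity inside the 5619-base transcript of Zxdb, a zinc finger gene of the same chromosome. Zxdb was 767, 764 and 680 in WT-Mem mice and 666, 732 and 492 in WT-Veh mice. The sum of Zxda and Zxdb, a quantity chosen after the values were seen, was 767, 764 and 680 in WT-Mem mice and 754, 784 and 587 in WT-Veh mice. The groups overlapped for that sum, with a log2 difference of 0.07 and a p of 0.8 by an exact two-sided permutation test, for which 0.1 is the smallest p that 3 against 3 mice allow. In the KO mice Zxda was 55.3, 77.4 and 84.2 with memantine and 0, 58.1 and 60.6 with vehicle, so the value of 0 was also found in a vehicle-treated mouse.

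Gm43302 is a protein-coding gene model within the cluster of guanylate-binding proteins, interferon-induced GTPases, on chromosome 5 (chr5:105214907-105293695, minus strand). No WT-Mem mouse had a value above 0 for it, and it was 47.0, 34.0 and 19.2 in the WT-Veh mice. Gm43302 fell in WT-Mem mice with an adjusted p of 0.0377 by limma. That call was lost whichever WT mouse was left out, with adjusted p from 0.0808 to 0.396. Of its 4310 exonic bases, 40.0% lie in exons of Gbp6 and 41.6% in exons of Gbp10 on the same strand, so reads can be divided between these models. Gbp6 was 74.8, 56.5 and 88.8 in WT-Mem mice and 34.7, 68.0 and 48.1 in WT-Veh mice, the groups overlapping. The sum of Gm43302 and Gbp6, also chosen after the values were seen, was 74.8, 56.5 and 88.8 against 81.7, 102 and 67.3, and these overlapped (exact permutation p = 0.5). With Gbp9 and Gbp4 added, the sum was 190, 204 and 203 in WT-Mem mice and 212, 289 and 216 in WT-Veh mice, which did not overlap (exact permutation p = 0.1, the smallest possible). Gbp9 and Gbp4 share 0 exonic bases with Gm43302, and this sum was also chosen after the values were seen. Gbp10 is in neither sum, so the wider sum does not answer how reads were divided.

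Absence in all mice of a group was a property of few genes. It was found for 18 genes whose mean reached 10 or more in the other group, 13 of them at 0 in WT-Mem and 5 at 0 in WT-Veh mice. Of the 18, 13 are processed pseudogenes, 14 were tested, and Zxda and Gm43302 were the 2 that passed the test. Several had a value above 0 in a single WT mouse. The processed pseudogene Gm12918, for example, was 987 in WT-Veh replicate 3 and 0 in the other 5 WT mice. Each of the 18 was also at 0 in at least 1 KO mouse.

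The next lowest p-value belonged to the hemoglobin gene group. Alpha-globin and beta-globin are the subunits of the oxygen carrier of erythrocytes, and their mRNA in brain tissue is carried by blood cells in vessels, with lower levels described in neurons and glia. Adult mouse alpha-globin is encoded by Hba-a1 and Hba-a2 on chromosome 11, and adult beta-globin by Hbb-bs and Hbb-bt on chromosome 7. The 120 bases before the annotated start of each gene are shown because these 4 genes, from 2 loci, had lower values together. They were taken from the RefSeq promoter table (GRCm38.p6), with capitals marking matches to the CACCC motif, to the CCAAT box and to a TATA-type motif spelled ATATAA, on either strand, none of which overlap. The windows are chr7:103827929-103828048 (minus strand) for Hbb-bs, chr7:103813924-103814043 (minus strand) for Hbb-bt, chr11:32283552-32283671 (plus strand) for Hba-a1 and chr11:32296372-32296491 (plus strand) for Hba-a2.
Hbb-bs: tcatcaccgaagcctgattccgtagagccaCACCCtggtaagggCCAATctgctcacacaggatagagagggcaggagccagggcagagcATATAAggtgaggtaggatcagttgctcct
Hbb-bt: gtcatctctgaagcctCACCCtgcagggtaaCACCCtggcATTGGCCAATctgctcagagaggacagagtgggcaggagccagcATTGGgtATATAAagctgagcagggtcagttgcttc
Hba-a1: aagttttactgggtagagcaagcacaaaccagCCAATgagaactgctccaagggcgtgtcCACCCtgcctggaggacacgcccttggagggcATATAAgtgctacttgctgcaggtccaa
Hba-a2: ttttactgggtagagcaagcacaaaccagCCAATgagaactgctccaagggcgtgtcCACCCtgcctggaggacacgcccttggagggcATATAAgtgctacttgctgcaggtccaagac
Each window held all 3 motifs, a combination found in 0.286% of 32851 promoter windows of the same length (CACCC in 31.7%, CCAAT in 21.3% and ATATAA in 4.47%). The alpha-globin windows were identical over the 117 bases that align, and the beta-globin windows over 77.6% of 116 bases. These matches describe the sequences and do not mark sites of binding. The 3 motifs were chosen for these 4 genes, and the windows of a pair share sequence, so the share of 0.286% is not a test. Any part of the promoters in the lower values was not tested.

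All 4 hemoglobin genes were lower in every WT-Mem mouse than in any WT-Veh mouse. Hbb-bs was 4163, 4483 and 4942 in WT-Mem mice and 6426, 8331 and 7169 in WT-Veh mice. The log2 fold change of Hbb-bs was -0.69 ± 0.10 (SE; unadjusted p = 4.49e-05, limma adjusted p = 0.263). Hbb-bt was 834, 822 and 819 against 1172, 1621 and 1134, with a log2 fold change of -0.65 ± 0.12. Hba-a2 was 4747, 4942 and 5178 against 7107, 9435 and 6504, with a log2 fold change of -0.61 ± 0.12. Hba-a1 was 3403, 3519 and 3678 against 4575, 6718 and 4456, with a log2 fold change of -0.55 ± 0.14. The spread in WT-Mem mice was small, as for Hbb-bt (SD 8.16 around a mean of 825), while WT-Veh replicate 2 was the highest WT mouse for each of the 4 genes. The transcripts of Hba-a1 and Hba-a2 are 99.8% identical and those of Hbb-bs and Hbb-bt 93.3%, so the division between members of each pair is uncertain while their sum is less so. The 4 genes together came to 13148, 13766 and 14617 in WT-Mem mice and 19280, 26106 and 19264 in WT-Veh mice, 1.56-fold higher in WT-Veh mice. The exact permutation p of this sum was 0.1, the smallest possible. It was fixed by the separation of each of the 4 genes and adds no evidence to it. Leaving out WT-Veh replicate 3 gave log2 fold changes of -0.70 for Hbb-bs, -0.74 for Hbb-bt, -0.73 for Hba-a2 and -0.65 for Hba-a1, and leaving out WT-Veh replicate 2 gave -0.48 for Hbb-bt and -0.35 for Hba-a1.

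Other erythroid genes were read from a list of 14, of which 10 were in the table and 9 tested. Slc4a1, the band 3 anion exchanger of the erythrocyte membrane, was 8.17, 10.8 and 8.11 in WT-Mem mice and 17.4, 28.3 and 25.1 in WT-Veh mice, again without overlap. Its log2 fold change was -1.28 ± 0.35, on values close to the lowest mean tested. Alas2, the erythroid enzyme that starts heme synthesis, was 153, 128 and 193 against 199, 214 and 184 and overlapped. Bpgm, which makes the 2,3-bisphosphoglycerate that lowers oxygen affinity, was 1516, 1501 and 1665 against 1744, 1662 and 1965 and overlapped by a narrow margin. Of the 9 genes tested, 6 had an unadjusted p under 0.05, all lower, and 5 did not overlap, against 2.47% and 5.19% of all genes tested that were lower by the same measures. The log2 fold change was above 0 for 2 of the 9. Among these was the hemoglobin gene Hbq1a at 0.12 ± 0.40, on low values with overlapping groups. The median of the list was -0.545, and it was -0.650 without WT-Veh replicate 3 and -0.354 without WT-Veh replicate 2. The embryonic Hbb-y and the erythroid genes Ahsp and Epb42 were not among the genes of the table. In bulk tissue, fewer cells of a type and less RNA per cell cannot be told apart.

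**Figure D2:**
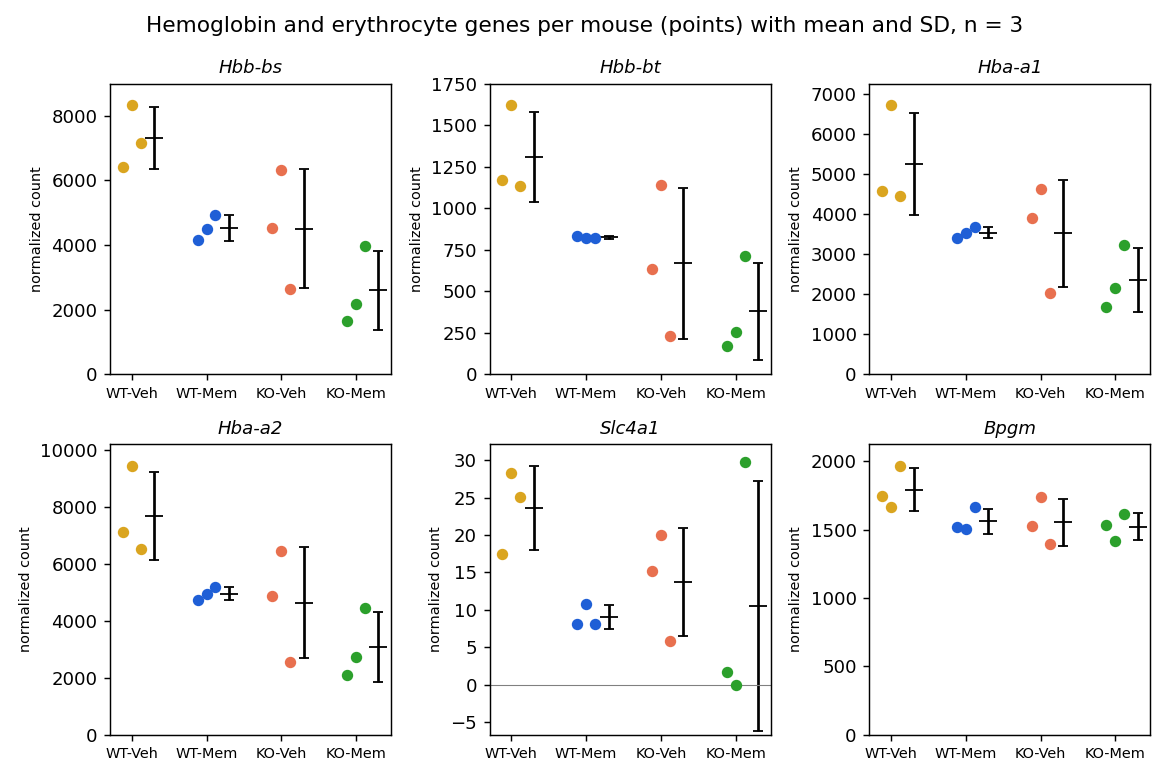
Normalized count (y axis, linear) of 6 erythrocyte-associated genes in each mouse (points) of the 4 groups (x axis), with the mean and SD of 3 mice beside them. The WT-Mem points lie together and below all WT-Veh points for the 4 hemoglobin genes and Slc4a1, while KO-Veh and KO-Mem points are spread and overlap.

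In the KO mice the 4 hemoglobin genes together came to 5592, 7291 and 12370 with memantine and 13947, 18552 and 7473 with vehicle. The KO groups overlapped, unlike the WT groups. Hbb-bs had a log2 fold change of -0.80 in KO mice, and its difference from WT was -0.12 ± 0.41 (SE; limma adjusted p = 0.985).

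Beyond these genes, 24 protein-coding genes with a mean of at least 100 and no overlap between the groups were taken as those with the smallest p, 12 in each direction. They were picked on this contrast from 510 such genes with higher and 567 with lower values in WT-Mem mice, so their separation is a description. Among the 12 with higher values, Rbm14, a coactivator and paraspeckle component that binds RNA, was 1353, 1356 and 1274 in WT-Mem mice and 1032, 950 and 843 in WT-Veh mice. The log2 fold change of Rbm14 was 0.50 ± 0.09 (limma adjusted p = 0.953). Slc7a5, which carries large neutral amino acids and thyroid hormones across the blood-brain barrier, was 3001, 2679 and 2770 against 2173, 2194 and 2392 (log2 fold change 0.32 ± 0.07). Ano2, a calcium-activated chloride channel of olfactory and some central neurons, was 173, 142 and 184 against 108, 69.6 and 106 (log2 fold change 0.83 ± 0.20). It was the largest log2 fold change of the 12.

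Cdkl3, a cyclin-dependent kinase-like protein, was 256, 327 and 363 in WT-Mem mice and 191, 209 and 205 in WT-Veh mice. Klhl40, known as a thin-filament stabilizer of skeletal muscle, was 191, 172 and 178 against 135, 115 and 111. Serpinb8, an intracellular serine protease inhibitor, was 307, 272 and 216 against 199, 160 and 159. Each of these 3 genes had a log2 fold change between 0.58 and 0.63, and in each the lowest WT-Mem mouse was above the highest WT-Veh mouse. Exoc7, a subunit of the exocyst that tethers secretory vesicles, was 2082, 2344 and 2003 against 1813, 1726 and 1668. Dcbld2, a transmembrane receptor-like protein, was 1422, 1499 and 1376 against 1152, 1227 and 1166, and Rrp1b, a nucleolar protein of ribosome assembly, was 594, 681 and 583 against 481, 495 and 461. These more abundant genes differed by less, with log2 fold changes of 0.30, 0.28 and 0.37, but varied little between mice of a group.

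Among the 12 genes with lower values, 3 were the hemoglobin genes Hbb-bs, Hbb-bt and Hba-a2 and 2 were the chains of type I collagen, Col1a1 and Col1a2, described with the matrix genes below. Uba7, the activating enzyme that charges the interferon-induced modifier ISG15, was 78.2, 68.7 and 70.1 in WT-Mem mice and 109, 147 and 228 in WT-Veh mice. The log2 fold change of Uba7 was -1.09 ± 0.24, and -0.80 without WT-Veh replicate 3, its highest mouse. Abhd12b, an alpha/beta-hydrolase family member, was 71.8, 99.5 and 66.8 against 147, 143 and 153 (log2 fold change -0.91 ± 0.18). In KO mice Abhd12b had a log2 fold change of -1.16 and the KO groups did not overlap either.

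Dock5, a guanine nucleotide exchange factor for the small GTPase Rac, was 417, 368 and 452 in WT-Mem mice and 518, 636 and 610 in WT-Veh mice. Prr5l, which binds the mTORC2 complex, was 385, 318 and 405 against 483, 651 and 525, and its log2 fold change of -0.58 in WT mice stood beside -0.60 in KO mice. Inpp5b, an inositol polyphosphate 5-phosphatase, was 1033, 1241 and 1144 against 1521, 1391 and 1588. The coiled-coil gene Ccdc190 was 268, 244 and 264 against 331, 383 and 366. WT-Mem replicate 2 had the lowest value of the 6 mice for Dock5, Prr5l and Ccdc190 and WT-Mem replicate 1 for Inpp5b. The limma adjusted p was 0.978 for each of these 4 genes.

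**Figure D3:**
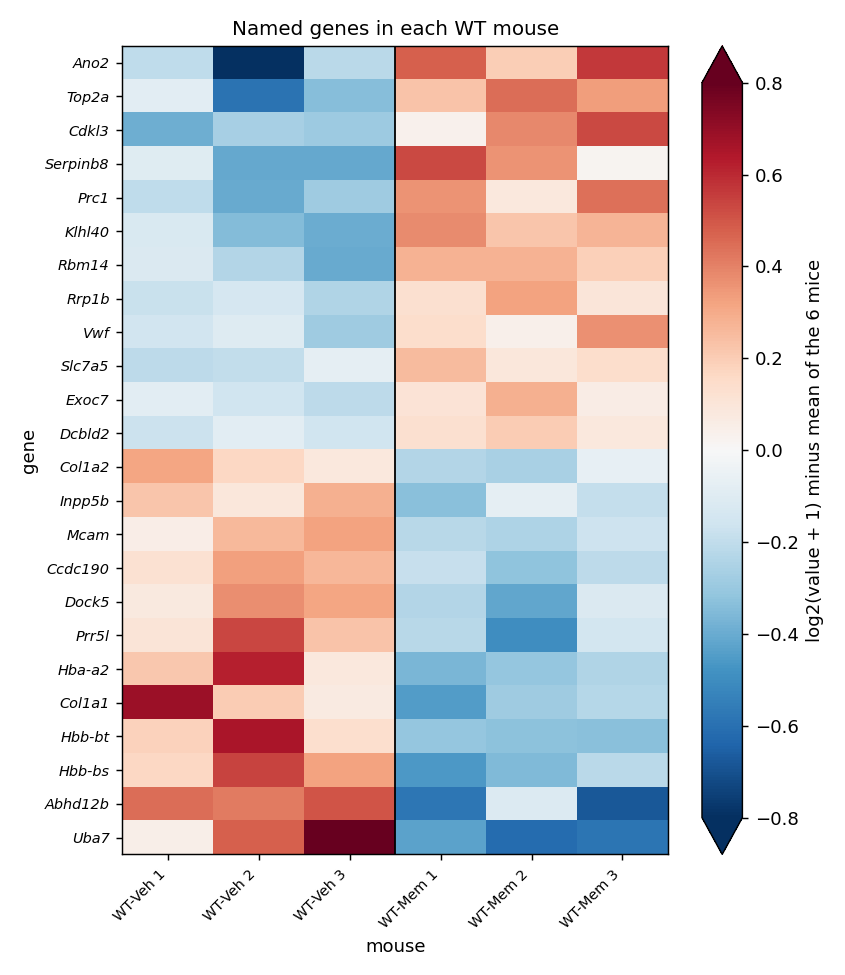
Log2(normalized count + 1) minus the mean of the 6 WT mice (color, clipped at -0.8 and 0.8) for the 24 named genes (rows) in each WT mouse (columns, vehicle on the left of the line). All 3 WT-Mem mice lie on the same side of all WT-Veh mice in each row because separation was part of the rule that chose the genes, and Uba7 is highest in WT-Veh replicate 3.

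The receptor that memantine blocks showed values within the spread of the mice. Of 7 NMDA receptor subunit genes, none had an unadjusted p under 0.05 and each had overlapping groups, with 6 log2 fold changes above 0 and a median of 0.04. Grin1, the obligatory GluN1 subunit, was 22198, 21872 and 21791 in WT-Mem mice and 22317, 21010 and 20159 in WT-Veh mice (log2 fold change 0.05 ± 0.06). Grin2b, the GluN2B subunit that dominates early development, was 19341, 19924 and 12721 against 19167, 15993 and 15422 (log2 fold change 0.02 ± 0.16). Grin2a, the GluN2A subunit that increases with maturation, was 6557, 6378 and 4722 against 6315, 5485 and 5577 (log2 fold change 0.01 ± 0.12). WT-Mem replicate 3 had the lowest Grin2a and Grin2b values of the 6 mice. Their log2 fold changes were slightly below 0 under quantile normalization, at -0.00221 for Grin2b and -0.00897 for Grin2a. Grin2c, prominent in cerebellum, thalamus and astrocytes, was 1681, 1708 and 1640 against 1857, 1689 and 1864 (log2 fold change -0.10 ± 0.07).

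Grin2d had a log2 fold change of 0.04 ± 0.08 and Grin3a, a subunit that lowers calcium permeability, one of 0.05 ± 0.07. Grin3b was the least abundant subunit, at 39.8, 27.7 and 16.6 against 23.5, 19.5 and 25.8 (log2 fold change 0.21 ± 0.34). Per kilobase of exonic length, the mean levels in WT-Veh mice ran from 2182 for Grin1 through 679 for Grin2b, 358 for Grin2c, 323 for Grin2a, 162 for Grin2d and 157 for Grin3a to 6.96 for Grin3b. The same order held in WT-Mem mice, at 2263, 698, 333, 328, 167, 162 and 8.51. Exonic length here counts every annotated exon of a gene, which can exceed the transcript expressed, so this order is approximate. It was 17933 bases for Grin2a and 5037 for Grin2c. Their mean counts in WT-Veh mice before division were 5792 and 1803, the reverse of their order per kilobase.

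The other reported targets also had overlapping groups, with none of 6 genes at an unadjusted p under 0.05 and a median log2 fold change of 0.06 (0.02 without WT-Veh replicate 3). Chrna7, the alpha7 nicotinic receptor subunit, was 475, 478 and 338 in WT-Mem mice and 456, 374 and 360 in WT-Veh mice. Chrna4 and Chrnb2, which form the main heteromeric nicotinic receptor of the brain, had log2 fold changes of 0.12 ± 0.13 and 0.05 ± 0.07. Htr3a, the 5-HT3A receptor subunit, was 194, 216 and 192 against 212, 182 and 198. Drd2, the dopamine D2 receptor, was 1026, 1023 and 991 against 957, 1225 and 989.

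Synaptic gene groups had medians slightly above 0, and those medians depended on single mice of both groups. Of 16 AMPA receptor and auxiliary subunit genes, none had an unadjusted p under 0.05 and none had groups without overlap (median log2 fold change 0.01). None of 24 postsynaptic scaffolds and kinases had an unadjusted p under 0.05 either (median 0.03, 2 genes without overlap). The same held for 33 presynaptic release genes (median 0.04, 1 without overlap) and 25 synaptic adhesion genes (median 0.07, 2 without overlap). Groups did not overlap for 9.34% of all genes tested. Log2 fold changes were above 0 for 9 of 16 AMPA receptor genes, 18 of 24 scaffolds and kinases, 23 of 33 presynaptic genes, 20 of 25 adhesion genes and 10 of 14 GABA-A receptor genes, against 50% of all genes tested. Without WT-Veh replicate 3 the medians were 0.00894 for scaffolds and kinases, 0.01 for presynaptic genes, 0.01 for adhesion genes, and 0.00604 in place of 0.06 for GABA-A receptor genes. Without WT-Mem replicate 3 they were 0.06 for scaffolds and kinases, 0.09 for presynaptic genes, 0.11 for adhesion and 0.12 for GABA-A receptor genes. The AMPA receptor median was -0.03 without WT-Mem replicate 1 and also without WT-Mem replicate 2. The median of 16 kainate, delta and metabotropic receptor genes was 0.04, with 10 above 0. It was -0.04 without WT-Veh replicate 3 and 0.10 without WT-Mem replicate 3. Among those 16 glutamate receptor genes, Grm2, the presynaptic group II receptor mGlu2, had an unadjusted p under 0.05. Grm2 was 2173, 2187 and 1790 in WT-Mem mice and 1925, 1669 and 1471 in WT-Veh mice, overlapping, with a log2 fold change of 0.28 ± 0.11. Among 14 GABA-A receptor subunit genes tested, Gabre, the epsilon subunit, was 148, 126 and 163 against 119, 88.2 and 108 and did not overlap. Among 17 interneuron markers, Cort, the neuropeptide cortistatin, was 84.2, 74.7 and 112 against 55.8, 61.9 and 76.2 and overlapped by a narrow margin.

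Immediate early genes, transcribed within minutes of neuronal activity and calcium entry, had a median log2 fold change of 0.195 over 26 genes, with 23 above 0. Only 2 had an unadjusted p under 0.05, both higher in WT-Mem mice (1.5% of all genes tested). Egr4, a zinc finger transcription factor, was 1233, 1246 and 1381 in WT-Mem mice and 907, 1102 and 1175 in WT-Veh mice without overlap (log2 fold change 0.28 ± 0.10). Fosb, a subunit of the AP-1 factor, was 323, 402 and 334 against 188, 263 and 337 (log2 fold change 0.46 ± 0.19), with WT-Veh replicate 3 above 2 of the WT-Mem mice. The list turned on single vehicle mice. WT-Veh replicate 1 had low values of many members, as for the synaptic plasticity gene Arc, which was 9857, 6779 and 7415 in WT-Mem mice and 2598, 6948 and 11896 in WT-Veh mice. The sums over the list were 58370, 52634 and 54534 in WT-Mem mice and 38934, 52610 and 59248 in WT-Veh mice. Without WT-Veh replicate 1 the median was 0.02 and no gene had an unadjusted p under 0.05, whereas without WT-Veh replicate 3 the median was 0.33 and 11 genes did.

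Neurotrophin genes had a median log2 fold change of 0.07, with 11 of 12 tested above 0 and none at an unadjusted p under 0.05, and a median of 0.03 without WT-Veh replicate 3. Of 16 glucocorticoid-responsive genes, 2 had an unadjusted p under 0.05 and did not overlap, both higher. Of all genes tested, 1.5% and 4.15% were higher by these measures. Fkbp5, the glucocorticoid-induced cochaperone that restrains the receptor, was 1551, 1280 and 1469 in WT-Mem mice and 1147, 888 and 1196 in WT-Veh mice (log2 fold change 0.42 ± 0.12). Cdkn1a, the cell cycle inhibitor p21, was 447, 448 and 500 against 351, 363 and 412 (log2 fold change 0.31 ± 0.10). Both also had log2 fold changes above 0 in KO mice, at 0.59 and 0.71. Without WT-Veh replicate 3, 8 of the 16 genes had an unadjusted p under 0.05 and the list median was 0.27 in place of 0.10. The median was 0.03 without WT-Veh replicate 2, and without WT-Veh replicate 1 it was 0.07 with 1 gene at an unadjusted p under 0.05. Of 12 thyroid hormone-responsive genes, Dio2, the deiodinase that makes active thyroid hormone in astrocytes, was 2607, 2826 and 2594 against 2416, 2200 and 2496. Thra, the main brain receptor for that hormone, was 23242, 23490 and 25992 against 22261, 21943 and 21052. Neither overlapped (4.15% of all genes tested were higher without overlap), and the list median was 0.0020, or 0.09 without WT-Veh replicate 3.

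Genes of vessel walls and the surrounding fibroblasts had mostly lower values in WT-Mem mice. Of 26 fibrillar collagen and fibroblast matrix genes, 20 had a log2 fold change below 0, 7 had an unadjusted p under 0.05, all lower (2.47% of all genes tested), and the median was -0.170. Col1a1, the alpha1 chain of type I collagen, was 628, 702 and 731 in WT-Mem mice and 1374, 982 and 897 in WT-Veh mice (log2 fold change -0.64 ± 0.14, limma adjusted p = 0.978). Col1a2, its alpha2 chain, was 1040, 1023 and 1168 against 1521, 1371 and 1300 (log2 fold change -0.37 ± 0.09). WT-Veh replicate 1 was the highest mouse for both chains. Col5a1, which regulates the diameter of collagen fibrils, was 1042, 1012 and 1121 against 1153, 1217 and 1428. Islr, a fibroblast secreted protein, was 467, 504 and 493 against 546, 645 and 538. The proteoglycan Lum and the collagen Col3a1 had lower means but overlapped, and Igf2, a growth factor of meninges and choroid plexus, was 2487, 2503 and 3085 against 2866, 3336 and 3927 and also overlapped. Other matrix genes such as Sparc, Mgp and Fn1 had log2 fold changes of 0.10, 0.12 and 0.04. The summed list was 36948 to 41266 in WT-Mem and 36967 to 42972 in WT-Veh mice, which overlap, since its most abundant members differed little. Without WT-Mem replicate 2, 3 of the 26 genes had an unadjusted p under 0.05, and without WT-Veh replicate 3, 4 did.

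All 14 mural cell markers, genes of pericytes and vascular smooth muscle, had log2 fold changes below 0, with a median of -0.209 (-0.175 without WT-Veh replicate 3). Of these, 4 had an unadjusted p under 0.05, against 2.47% of all genes tested that were lower at that p. Mcam, an adhesion molecule of pericytes, smooth muscle and endothelium that is also in the endothelial list, was 998, 978 and 1038 in WT-Mem mice and 1208, 1389 and 1452 in WT-Veh mice (log2 fold change -0.42 ± 0.09, limma adjusted p = 0.978). Pdgfrb, the pericyte receptor for PDGF-B, was 951, 1020 and 954 against 1177, 1151 and 1140 without overlap. Acta2, smooth muscle actin, was 430, 368 and 439 against 507, 510 and 462, also without overlap. Rgs5, an abundant pericyte marker, differed by -0.06. The mural sums were 8805 to 9743 in WT-Mem and 9809 to 11338 in WT-Veh mice. Without WT-Mem replicate 2 or without WT-Veh replicate 2, 2 of the 14 genes had an unadjusted p under 0.05, and the median was -0.13 and -0.16.

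Endothelial markers had both directions. Of 23 genes, 16 had a log2 fold change below 0 (median -0.116), and 8 had groups without overlap, 6 lower (5.19% of all genes tested) and 2 higher (4.15% of all). Vwf, the von Willebrand factor of endothelium and platelets, was 1439, 1340 and 1677 in WT-Mem mice and 1171, 1212 and 1069 in WT-Veh mice (log2 fold change 0.36 ± 0.10). Tek, the angiopoietin receptor Tie2, was 398, 438 and 384 against 565, 535 and 419, overlapping only through WT-Veh replicate 3. The defining endothelial genes Pecam1 and Cldn5 had log2 fold changes of -0.12 and -0.11. The endothelial sums were 33800 to 37029 in WT-Mem and 34928 to 37409 in WT-Veh mice and overlapped. Adult hemoglobin genes and mural sums were lower in the same 3 mice, and the part of vessel or blood content in these values was not tested. Basement membrane genes had a median of -0.05 (-0.01 without WT-Veh replicate 3) with none of 17 at an unadjusted p under 0.05, and 15 perineuronal net and proteoglycan genes a median of -0.04. Hapln4, a link protein of perineuronal nets, was 2237, 2178 and 2190 against 2634, 2666 and 2452 without overlap.

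**Figure D4:**
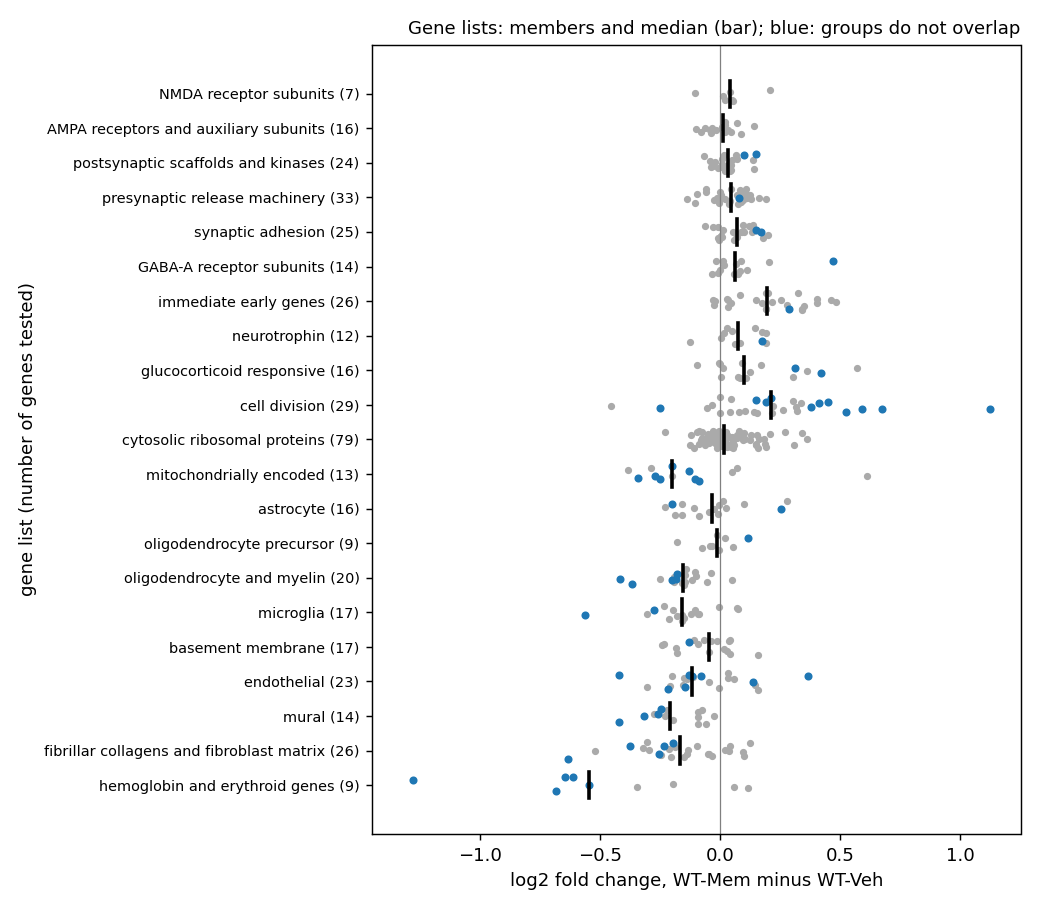
Log2 fold change between WT-Mem and WT-Veh mice (x axis) for the genes tested of 21 lists (y axis), with a bar at the median of each list and blue points for genes whose groups do not overlap. Receptor and synaptic lists sit near 0, the hemoglobin and erythroid list has its median at -0.545, and the mural list has all 14 genes below 0.

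Oligodendrocyte and myelin genes also lay mostly below 0, with 19 of 20 log2 fold changes negative and a median of -0.155 (-0.105 without WT-Veh replicate 3). An unadjusted p under 0.05 was found for 4, all lower (2.47% of all genes tested), and 5 had lower values without overlap (5.19% of all). Aspa, the enzyme that cleaves N-acetylaspartate in oligodendrocytes, was 432, 358 and 514 in WT-Mem mice and 529, 650 and 554 in WT-Veh mice (log2 fold change -0.42 ± 0.14). Opalin, a myelin glycoprotein, was 749, 609 and 851 against 875, 931 and 1027. Ermn, a cytoskeletal protein of myelinating cells, was 1870, 1749 and 1803 against 2014, 2098 and 2128, and Mal, a myelin membrane protein, was 13006, 12391 and 14714 against 14715, 14930 and 15756. Mbp, which encodes myelin basic protein, overlapped between the groups. It was 127430, 121242 and 150471 against 138107, 138161 and 181570. The count of members at an unadjusted p under 0.05 was 0 without WT-Mem replicate 2 and 10 without WT-Mem replicate 3. In KO mice the list median was -0.277. Oligodendrocyte precursor genes had a median of -0.01, with none of 9 at an unadjusted p under 0.05.

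A list of 29 cell division genes was added after the values were seen, because Top2a and Prc1 were among the 12 genes with higher values. Its median was 0.211, with 23 genes above 0, 5 at an unadjusted p under 0.05, all higher (1.5% of all genes tested), and 11 without overlap, 10 of them higher (4.15% of all). Top2a and Prc1, which prompted the list, are in both counts, and of the other 27 genes 3 had an unadjusted p under 0.05 and 8 had higher values without overlap. Nothing is read from these shares. Top2a, the topoisomerase of dividing cells, was 170, 198 and 183 in WT-Mem mice and 137, 96.0 and 114 in WT-Veh mice (log2 fold change 0.68 ± 0.16). Prc1, which bundles microtubules of the mitotic spindle midzone, was 142, 117 and 150 against 95.9, 83.4 and 90.5. Cenpe, a kinetochore motor, was 77.4, 105 and 66.2 against 37.9, 43.2 and 30.5 (log2 fold change 1.12 ± 0.23, limma adjusted p = 0.978). Mki67, the proliferation marker Ki-67, was 209, 192 and 178 against 160, 147 and 129. Of the 5 genes at that p, these are the 4 with the smallest p. The list also had 6 genes below 0, the lowest at -0.46. The replication helicase genes Mcm2 to Mcm7 had log2 fold changes from -0.25 to 0.08, and a part of cell cycle phase was not tested. The median was 0.190 without WT-Veh replicate 3, and 5 genes again had an unadjusted p under 0.05. In KO mice the list median was -0.116, and for Cenpe the difference between the genotypes was -1.63 ± 0.53 (unadjusted p = 0.00861, limma adjusted p = 0.947).

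Microglial markers had 15 of 17 log2 fold changes below 0 and a median of -0.159. Aif1, the microglial protein Iba1, was 44.3, 60.9 and 50.9 in WT-Mem mice and 69.6, 79.3 and 81.7 in WT-Veh mice without overlap and was the single member with an unadjusted p under 0.05. Without WT-Veh replicate 1, 8 of the 17 genes had one, and without WT-Mem replicate 1 none did. The list median was -0.08 without WT-Veh replicate 3, -0.10 without WT-Veh replicate 2 and -0.25 without WT-Veh replicate 1. The 5 perivascular macrophage genes tested had a median of -0.259, and -0.06 without WT-Veh replicate 3. Astrocyte markers lay in both directions around a median of -0.04 (-0.01 without WT-Veh replicate 3). Gjb6, the astrocyte gap junction protein connexin 30, was 1900, 1728 and 1827 against 1475, 1474 and 1636, whereas Slc7a10, an astrocyte amino acid transporter, was 817, 798 and 856 against 882, 957 and 1002. Aqp4, the water channel of astrocyte endfeet, was 3918, 3462 and 3489 against 3875, 4690 and 4209 and overlapped.

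Of 16 choroid plexus and ependymal genes, Aqp1, the water channel of choroid epithelium, had 153, 159 and 151 in WT-Mem mice and 113, 106 and 112 in WT-Veh mice, with no overlap. Kl and Enpp2, which the choroid plexus also expresses, had log2 fold changes of -0.24 ± 0.10 and -0.14 ± 0.06, and the list median was -0.04. Regional markers had medians of 0.02 for forebrain, 0.0046 for thalamus, hypothalamus and midbrain, and 0.06 for cerebellum and hindbrain. Without WT-Veh replicate 3 these medians were 0.05 for choroid plexus and ependyma, -0.02 for forebrain, -0.03 for thalamus, hypothalamus and midbrain, and 0.40 for cerebellum and hindbrain. Slc6a3, the dopamine transporter of midbrain neurons, was 425, 439 and 487 against 332, 403 and 402 without overlap. The 10 cerebellum and hindbrain genes tested ranged from -1.05 to 0.50, and none had an unadjusted p under 0.05. Pituitary, nasal and muscle genes, of which 5 of 10 were in the table, had a median of -0.06 with none at an unadjusted p under 0.05, and 4 Y-linked genes had a median of 0.10. Without WT-Veh replicate 3 the medians were -0.19 and 0.05.

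Among nuclear noncoding RNAs, Malat1, an abundant RNA of nuclear speckles, was 21773, 21310 and 16221 in WT-Mem mice and 25397, 29141 and 27741 in WT-Veh mice. Malat1 had a log2 fold change of -0.48 ± 0.11 (unadjusted p = 0.0014, limma adjusted p = 0.978). In KO mice it was -0.02, and the difference between the genotypes was 0.46 ± 0.23. Hbb-bs, Hba-a2, Rbm14, Col1a1, Uba7, Malat1 and Mcam are the 7 genes the study itself named in WT-M/V from these same mice. With DESeq2 and an adjusted p under 0.05, the paper counts 7 differentially expressed genes in WT-M/V, 1 higher and 6 lower. By limma on log values, none of the 7 genes listed passed that threshold. None of the 7 overlapped here, which is not independent evidence. The paper also ran gene set enrichment over all ranked genes of WT-M/V. It reports positive enrichment of synapse-related sets and negative enrichment of extracellular matrix sets. That method differs from the list medians given here and was not repeated. Of 31 splicing regulators, 22 had log2 fold changes below 0 (median -0.04), with 2 lower at an unadjusted p under 0.05 (2.47% of all genes tested). Lower values without overlap were found for 7 (5.19% of all). Among them was Clk3, a kinase of SR splicing factors, with 2590, 2370 and 2585 against 2759, 2854 and 2933. Rbm25 was 3462, 3404 and 2942 against 3781, 3552 and 3920. Uba7 was the single member of 19 tested interferon and ISG15 pathway genes with an unadjusted p under 0.05, in a list with a median of -0.123 (-0.08 without WT-Veh replicate 3).

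The 13 mitochondrially encoded mRNAs had a median log2 fold change of -0.203, with 7 lower in every WT-Mem mouse than in any WT-Veh mouse (5.19% of all genes tested). An unadjusted p under 0.05 was found for 3, 2 lower and 1 higher (2.47% and 1.5% of all genes tested). Mt-Nd2 and mt-Nd1, subunits of respiratory complex I, were highest in WT-Veh replicate 3. The transcript mt-Nd2 was 50422, 46022 and 44555 in WT-Mem mice and 51990, 55889 and 72538 in WT-Veh mice, and mt-Nd1 was 75191, 72050 and 77251 against 81269, 83948 and 108488. In contrast, mt-Co3, a subunit of cytochrome c oxidase, was 72374, 64410 and 65057 against 76320, 35232 and 31733, a log2 fold change of 0.61 ± 0.26. With WT-Veh replicate 1, its highest mouse, left out, mt-Co3 had a log2 fold change of 1.01 and passed the threshold (limma adjusted p = 0.0238). The summed mRNAs were 982617, 942093 and 953515 in WT-Mem mice and 1020750, 989228 and 1271620 in WT-Veh mice. The list median was -0.08 without WT-Veh replicate 3 and -0.09 under quantile normalization. The 79 cytosolic ribosomal protein genes, a list also added after the values were seen, had a median of 0.02 and no gene without overlap.

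Cytosolic heat shock genes had a median of -0.05, with 13 of 16 below 0. Cryab, a small heat shock protein of oligodendrocytes and astrocytes, was 1861, 1701 and 2172 in WT-Mem mice and 2083, 2455 and 2644 in WT-Veh mice. Endoplasmic reticulum chaperones had a median of 0.01 and circadian clock genes 0.07, with no member at an unadjusted p under 0.05. Of 20 cholesterol synthesis genes, Nsdhl and Hsd17b7, enzymes of the steps after lanosterol, had lower values without overlap (5.19% of all genes tested). Their log2 fold changes were -0.22 ± 0.09 and -0.23 ± 0.10, and 1 other member was higher without overlap (4.15% of all). Without WT-Veh replicate 3 the median was -0.03 for chaperones and -0.06 for cholesterol synthesis. The cholesterol list median was -0.03 in WT and -0.314 in KO mice.

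Memantine against vehicle in KO mice (KO-M/V) provided a comparison with no mice in common with WT-M/V. The genotype by treatment interaction over all 12 mice gave no gene with an adjusted p under 0.05 among 17655 tested (limma, smallest adjusted p = 0.947), with 840 (4.76%) at an unadjusted p under 0.05. No gene was therefore shown to respond differently in WT than in KO mice. KO-M/V had no differentially expressed gene by the same test and 1573 (8.88%) at an unadjusted p under 0.05. Of the 678 genes with an unadjusted p under 0.05 in WT-M/V that were tested in both comparisons, 445 (65.6%) had the same direction in KO-M/V, against 55.0% of all 17292 genes tested in both. Over these 17292 genes the log2 fold changes had a Pearson r of 0.0055, a description across genes that share libraries and are not independent. An unadjusted p under 0.05 in both was found for 125 genes, 98 of them in the same direction.

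The named genes fell on both sides of that comparison. Abhd12b, Prr5l, Uba7 and the hemoglobin genes Hbb-bs, Hbb-bt, Hba-a1 and Hba-a2 were lower with memantine in both genotypes. Their log2 fold changes in KO mice included -1.16 for Abhd12b, -0.60 for Prr5l, -0.51 for Uba7 and -0.81 for Hbb-bt. Rbm14 was -0.03 in KO mice, with a difference between the genotypes of -0.53 ± 0.16 (unadjusted p = 0.00443, limma adjusted p = 0.947). Rrp1b had -0.15 in KO mice and a difference of -0.51 ± 0.16. Dcbld2 had -0.08 in KO mice and a difference of -0.36 ± 0.09 (unadjusted p = 0.00133, limma adjusted p = 0.947). Mcam had -0.08 in KO mice against -0.42 in WT mice, a difference of 0.34 ± 0.14.

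**Figure D5:**
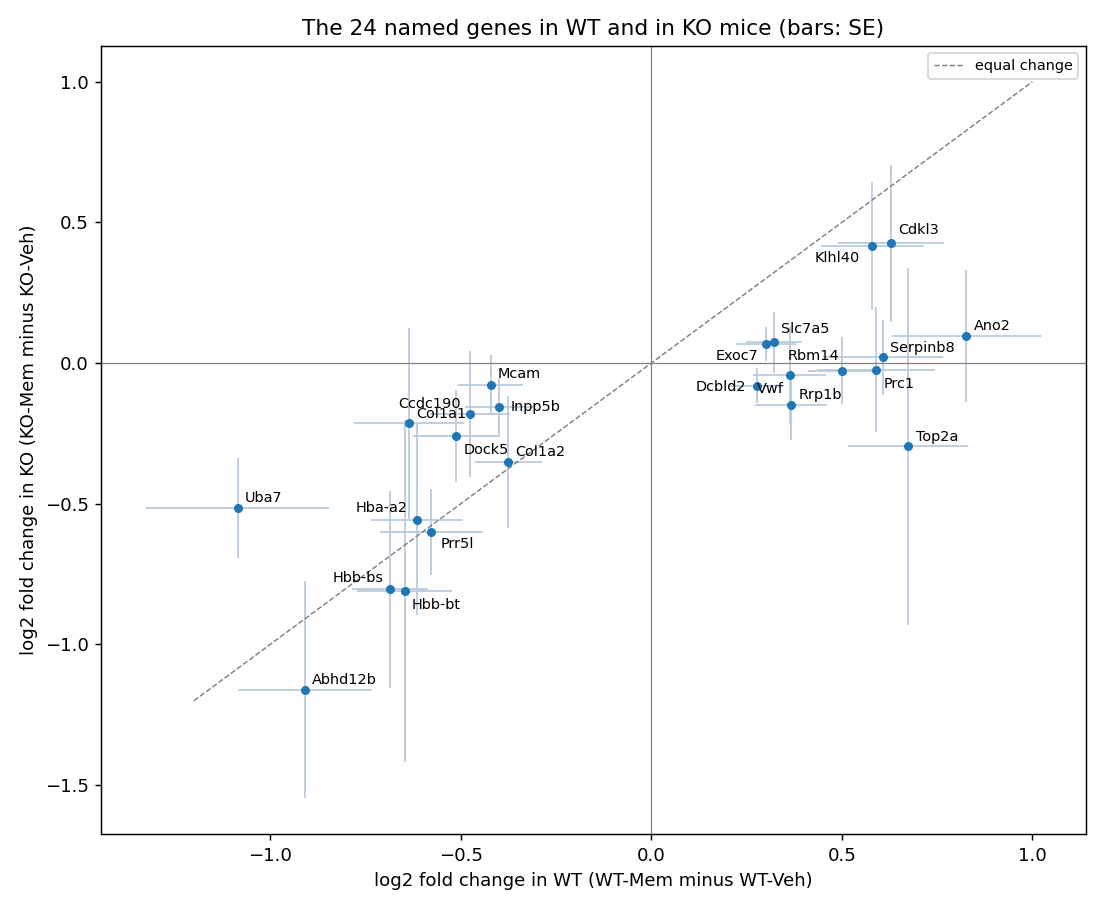
Log2 fold change with memantine in WT mice (x axis) against that in KO mice (y axis) for the 24 named genes, with bars of 1 SE and a dashed line of equal change. Genes chosen for lower values in WT mice lie below 0 in KO mice too, with Mcam nearest to 0 at -0.08, while genes chosen for higher values scatter around 0, from -0.30 for Top2a to 0.43 for Cdkl3.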

How the data were processed

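RNA libraries of 12 mouse brains (TruSeq RNA kit) were quantified by the authors with Salmon 1.1.0 on GRCm38 transcripts and summed to genes. The deposited signal values are estimated counts divided by DESeq2 (1.26.0, per the labels) normalization factors by the authors, not log transformed. Count tests were therefore not used, and library depth was not estimated. The annotation release and gene filter are not given in the sources used here. Of 19312 genes, 19295 matched GENCODE M21. Genes whose mean over the fitted mice reached 10 were tested with limma 3.58.1 (R 4.3.3; lmFit, eBayes with trend) on log2(value + 1), with Benjamini-Hochberg adjustment over all genes tested. The script was tested on simulated data. WT-M/V was fitted on its 6 mice, and the interaction on 12. P-values measure the spread between 3 mice per group. Reads without molecular identifiers are not independent molecules.

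The comparison and gene lists were chosen with earlier results of these data known. Named genes were those past the adjusted threshold, the 12 higher and 12 lower described in the text, memantine targets, hemoglobin genes, the study's 7 genes, up to 4 members per list at an unadjusted p under 0.05, and genes at 0 in all mice of 1 group. The cell division and ribosomal lists, the sums over Zxda and Gbp genes, Slc4a1, Bpgm, Alas2, Lum, Islr, Col3a1, Arc, Mbp and other members given only as values were chosen after their values were seen. Alternatives were the pseudocount, filter, scaling, variance trend, samples in the fit, replicate block and each mouse left out. Some list members are not reported here. Transcripts were aligned with Biopython 1.88.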

Additional observations from a re-analysis of the deposited data

Results flagged for a closer look

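Slc6a3, the dopamine transporter of midbrain dopamine neurons, moved in opposite directions in the genotypes. It was higher with memantine in WT mice, by 0.25 ± 0.11 on the log2 scale, and each WT-Mem mouse was above each WT-Veh mouse. In KO mice it was 440, 448 and 436 with memantine and 495, 506 and 506 with vehicle, a log2 fold change of -0.19, so each KO mouse lay the other way. The difference between the genotypes was -0.44 ± 0.13 (unadjusted p = 0.00562, limma adjusted p = 0.947) and did not pass the test. This pattern was singled out after the values were seen.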

How the results depend on the processing

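The count of 2 differentially expressed genes in WT-M/V was 1 with a pseudocount of 0.5 or 5, 1 under quantile normalization, 0 at a minimum mean of 50, where Zxda and Gm43302 were not tested, and 0 in a fit of all 12 mice, whose variance included KO mice. Leaving out a mouse gave 1 to 3, and without WT-Veh replicate 3 the single gene was Fam205a2, neither of the 2. Whether replicate numbers pair the mice depended on the genes used. Same-numbered mice had correlations of deviations of 0.009, -0.005 and 0.083 over the 17564 genes tested, but 0.115, 0.175 and 0.222 over the 12868 with a mean of at least 100, where WT-Veh replicate 1 correlated more with WT-Mem replicate 2 (0.147). The pairing was therefore not settled, and the numbers were not used as pairs. Adding a replicate block gave a count of 1 (Zxda, while Gm43302 had an adjusted p of 0.178), with 796 genes that had an unadjusted p under 0.05, 11 of them among the 20 myelin genes in place of 4. The interaction gave 0 to 4 genes with a mouse left out, 4 of them without KO-Mem replicate 3. Of 1498 values of named genes under alternatives, 18 changed sign, in 8 genes, none past the threshold. Under quantile normalization Grin2b was -0.00221 and Grin2a -0.00897. With a mouse left out the ranges were -0.0976 to 0.23 for Grin2b, -0.0750 to 0.16 for Grin2a, -0.0160 to 0.0893 for Grin2d, -0.0811 to 0.53 for Grin3b, -0.0488 to 0.21 for Chrna4, -0.12 to 0.0582 for Drd2, -0.0317 to 0.0791 for Htr3a and -0.17 to 0.43 for Hbq1a. The causes were not tested. With 3 mice per group, small differences were not detectable.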
